A study of Rattus norvegicus with 8 samples.

Results

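miR-101 and miR-26 are 2 small miRNA families, and in the rat each has an a and a b form made from separate genes. They were followed in prostatic urethra tissue 5 days after surgery through every strand on the array whose name begins with miR-101a, miR-101b, miR-26a or miR-26b. This gave 8 strands out of the 758 rat miRNAs measured. The 4 strands that were detected on any array were rno-miR-101a-3p, rno-miR-101b-3p, rno-miR-26a-5p and rno-miR-26b-5p (the rat prefix is dropped below), and the other 4 strands, miR-101a-5p, miR-101b-5p, miR-26a-3p and miR-26b-3p, were detected on 0 of 8 arrays. The families were chosen by their probe signals, their detection calls and their change from the sham group to the TULP group in these same arrays. Their differences are therefore given as a description with their spread, and no p is given for them.

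The animals were male Sprague Dawley rats, 10 to 12 months old. In the TULP group, a simulated transurethral laser prostatectomy, a thulium laser was used to vaporize the urothelium of the prostatic urethra. The sham group received an abdominal incision and no laser treatment. Each group held 4 animals with 1 array each, and all were harvested 5 days after surgery. Groups follow the sample titles, whereas the free-text descriptions of the TULP samples name sham surgery, and every difference below rests on the titles. The tissue was a mixture of cell types, so that fewer cells of a type and less RNA per cell cannot be told apart.

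A miRNA guides a protein complex to messenger RNAs, mainly through its seed, bases 2 to 8 counted from the 5′ end, and the targeted messenger is degraded or translated less. miR-101 and miR-26 are known from cancer and developmental work to repress EZH2, the enzyme subunit of Polycomb repressive complex 2, which methylates histone H3 and keeps genes silent. Loss of miR-101 together with high EZH2 has been described in prostate cancer, and miR-26 is known for slowing proliferation. Neither EZH2 nor any other messenger RNA was measured on these arrays.

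The mature sequences are shown because the seed decides which messengers a miRNA can reach and because the bases outside the seed decide whether the array can tell the a form from the b form. They were taken from RefSeq (rat build GRCr8), where all 8 strands were found among 693 mature rat miRNAs. Capitals mark the seed.
miR-101a-3p: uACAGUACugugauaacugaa
miR-101b-3p: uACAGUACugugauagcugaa
miR-26a-5p: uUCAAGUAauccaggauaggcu
miR-26b-5p: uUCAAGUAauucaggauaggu
miR-144-3p: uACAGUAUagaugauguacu

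Within each family the seed was identical, and among the 693 mature miRNAs no other shared it. Counted from the 5′ end, miR-101a-3p and miR-101b-3p differed at 1 of 21 bases (A16G, the miR-101a base first). miR-26a-5p and miR-26b-5p differed at 2 of the 21 positions they share (C11U and C21U, the miR-26a base first), and miR-26a-5p was 1 base longer, with 22 bases. miR-144-3p, an erythroid miRNA that has also been reported to repress EZH2, shared bases 2 to 7 with miR-101 and differed at the next base (C8U). It was detected on 0 of 8 arrays.

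The 4 genes lie apart in the genome. On GRCr8, Mir101a lies at chr5:121081683-121081757 on the minus strand, within the long non-coding RNA gene LOC120102934. Mir101-2, the source of miR-101b, lies at chr1:236273922-236274018 on the plus strand, within Rcl1. Mir26a lies at chr8:127633048-127633137 within Ctdspl, and Mir26b at chr9:83425709-83425793 within Ctdsp1, both on the plus strand. Ctdspl and Ctdsp1 are related genes that encode small phosphatases acting on the tail of RNA polymerase II, so both miR-26 genes sit inside members of the same host family.

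Each of the 4 detected strands was read by 2 probes that differ by 1 base in length, each printed in 8 spots. The longer probe of each pair is shown, as printed on the array, to show how far a probe can separate the relatives. Capitals mark the bases that lie opposite a position at which the other form differs or has no base.
miR-101a-3p probe: ttcagTtatcacagtactgta
miR-101b-3p probe: ttcagCtatcacagtactg
miR-26a-5p probe: AGcctatcctgGatta
miR-26b-5p probe: AcctatcctgAattacttgaa

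The miR-101a and miR-101b probes each lay 1 mismatch from the other form. The miR-26a probes lay 3 mismatches and the miR-26b probes 2 mismatches from the other form. No further mature rat miRNA came within 2 mismatches of any of these 8 probes. How much of a signal came from the relative was not tested, so the a and b forms of miR-101 in particular are uncertain as separate measurements.

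Over the whole series, the sham arrays detected 146 to 156 miRNAs and the TULP arrays 136 to 151. Summed over detected miRNAs, signal ranged from 21075 to 37357 intensity units in sham tissue and from 16787 to 19464 in TULP tissue, so the groups did not overlap and the TULP arrays were dimmer. Detected means that at least 1 probe of the miRNA had a total signal above 3 times its own error. Markers of epithelium and muscle were present. Of 8 epithelial miRNAs such as the miR-200 family, all 8 were detected somewhere, miR-203a-3p on 1 TULP array only. Both smooth muscle miRNAs, miR-143-3p and miR-145-5p, were detected.

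miR-26a-5p and miR-26b-5p were detected on all 8 arrays, and on 3 of the 4 TULP arrays both were dimmer than on any sham array. The total signal of miR-26a-5p before normalization was 289, 386, 386 and 502 intensity units in sham replicates 1 to 4 and 301, 202, 169 and 177 in TULP replicates 1 to 4. The groups overlapped through a single pair, with TULP replicate 1 above sham replicate 1. The mean was 391 ± 87.0 in the sham group and 212 ± 61.0 in the TULP group (SD, n = 4 each), 1.84-fold apart. miR-26b-5p gave 111, 133, 171 and 180 units in the sham group and 111, 66.3, 58.8 and 64.2 in the TULP group. Here too TULP replicate 1 was the high array of its group and stood level with sham replicate 1, the low array of the sham group. The means were 149 ± 32.2 and 75.2 ± 24.3, 1.98-fold apart.

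**Figure D1:**
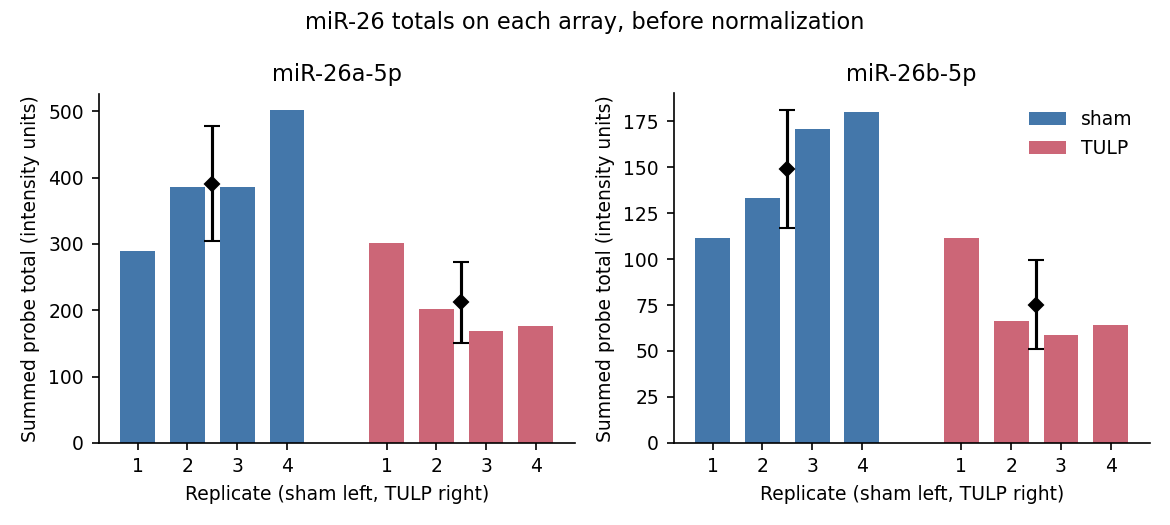
Bars give the summed probe total of miR-26a-5p (left) and miR-26b-5p (right) on each array, in intensity units before normalization, and diamonds with error bars give the group mean and SD (n = 4). In both panels TULP replicate 1 stands at the height of sham replicate 1, and the other 3 TULP arrays lie below all 4 sham arrays.

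The miR-26 signals were precise within an array. The spots of a miR-26a-5p probe varied by 1.16% to 5.38% (coefficient of variation over 8 spots) and those of a miR-26b-5p probe by 2.17% to 7.60%. The 2 probes of a miRNA differed between the groups by almost the same factor. The 16-base and 15-base probes of miR-26a-5p were 1.85-fold and 1.83-fold higher in the sham group, and the 21-base and 20-base probes of miR-26b-5p were 1.97-fold and 2.00-fold higher. The longer probe gave 1.77 to 1.92 times the signal of the shorter one for miR-26a-5p and 1.19 to 1.30 times for miR-26b-5p over all 8 arrays. The spread between arrays was thus far wider than that between spots. With 1 array per animal, the spread of animals and that of arrays cannot be told apart.

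The a and b forms of miR-26 differed between the groups by similar amounts. On the log2 scale, before normalization, the TULP minus sham difference was -0.89 for miR-26a-5p and -1.01 for miR-26b-5p. The log2 ratio of miR-26a-5p to miR-26b-5p within an array was 1.39 ± 0.16 in the sham group and 1.51 ± 0.08 in the TULP group (SD, n = 4 each). The ratios of the groups overlapped. Their means lay 0.12 apart, less than the SD of the sham arrays and more than that of the TULP arrays. Whether the ratio differed between the groups was not tested. The ratio compares changes, and not amounts, because different probes bind with different strength.

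A lower signal was shared with most miRNAs. Without normalization the median difference of the 151 tested miRNAs, those detected on at least 4 of 8 arrays, was -0.55 on the log2 scale. Relative to that median, miR-26a-5p was lower by -0.34 and miR-26b-5p by -0.45. When signals were scaled to the spike-in controls for labelling, meant to be equal in each sample, the median was -0.78. The 2 miRNAs lay at -0.34 and -0.45 from it again, since a scaling factor moves miRNAs detected on all arrays alike. The log10 spike-in signal was 2.87 to 2.92 in the slide row that held TULP replicates 1 to 3 and sham replicate 4. In the row of the other arrays it was 2.72 to 2.84, so this scaling also carries the slide row, which held the groups unequally. Quantile normalization, which gives every array the same set of values and was the study's method, leaves a median of -0.02 and therefore shows only what is relative to other miRNAs.

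After quantile normalization, miR-26a-5p had log2 values of 8.24, 8.49, 8.24 and 8.36 in the sham group and 8.24, 8.01, 7.73 and 7.66 in the TULP group. TULP replicate 1 tied with 2 sham arrays and the other 3 TULP arrays lay lower. The group means were 8.33 ± 0.12 and 7.91 ± 0.27, with a difference of -0.42 (SE 0.15). miR-26b-5p had 6.98, 6.76, 7.10 and 6.85 in the sham group and 6.76, 6.35, 6.35 and 6.50 in the TULP group. Again TULP replicate 1 tied with the lowest sham array. The means were 6.92 ± 0.15 and 6.49 ± 0.19, with a difference of -0.43 (SE 0.13). After this normalization neither difference reached 2-fold.

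The arrays lay in 2 rows of the same slide, and the rows held the groups unequally. In the first row, TULP replicates 1 to 3 minus sham replicate 4, the normalized differences were -0.37 for miR-26a-5p and -0.36 for miR-26b-5p. In the second row, TULP replicate 4 minus sham replicates 1 to 3, they were -0.66 and -0.45. Both rows therefore showed the same direction, with 1 array on one side of each comparison. With the slide row as a block the differences were -0.52 and -0.41.

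miR-101a-3p was near the limit of detection. It was detected on all 4 sham arrays and on 0 of 4 TULP arrays. The summed signal of its detected probes was 4.30, 9.36, 16.7 and 9.32 units in sham replicates 1 to 4. Sham replicate 3 was the high array, and on sham replicate 1 only the longer probe was above its limit. The TULP arrays give no summed signal, because no probe reached 3 times its error there.

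The probe totals, which exist on every array whether or not the miRNA was called detected, show the margins. The 21-base probe of miR-101a-3p gave 4.30, 5.13, 8.99 and 5.05 units in sham replicates 1 to 4, against 2.34, 3.17, 2.29 and 2.08 in TULP replicates 1 to 4. All 4 sham values lay above all 4 TULP values. The 20-base probe gave 2.69, 4.24, 7.74 and 4.26 units in the sham group, against 1.58, 1.20, 1.58 and 1.87 in the TULP group, again without overlap. The means of the longer probe were 5.87 ± 2.12 units in the sham group and 2.47 ± 0.48 in the TULP group, and those of the shorter were 4.73 ± 2.13 and 1.56 ± 0.28 (SD, n = 4 each). No fold is given, since the TULP readings were not above the limit. These totals are before normalization, and the summed signal of whole arrays did not overlap either (21075 to 37357 units in sham, 16787 to 19464 in TULP). How many other probes were without overlap on this scale was not counted.

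In units of its own error, the longer probe stood at 3.58 to 6.14 on the sham arrays and at 1.63 to 2.36 on the TULP arrays. Just inside the limit of 3 were the shorter probe on sham replicate 2, at 3.07, and on sham replicate 4, at 3.25. Just outside were the longer probe on TULP replicate 2, at 2.36, and the shorter probe on sham replicate 1, at 2.32. The TULP signals were not at the bottom of the array. In each TULP array both miR-101a-3p probes lay above 87.2% to 98.4% of the 1497 to 1526 probes of undetected miRNAs. Not being detected therefore does not mean a signal of 0.

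miR-101b-3p was detected on sham replicates 2 and 3 and on no other array, and it did not enter the fit over all miRNAs. Its 19-base probe gave 2.08, 4.60, 5.76 and 2.93 units in the sham group, against 3.11, 2.55, 2.90 and 2.42 in the TULP group. Sham replicates 2 and 3 were high, and the other 2 sham arrays lay among the TULP arrays or below them. The groups overlapped, with means of 3.84 ± 1.65 and 2.74 ± 0.32 units (SD, n = 4 each). Its 18-base probe stayed below the limit on all 8 arrays, at 0.04 to 1.78 times its error. The last detected and first undetected values of the longer probe were 3.32 times its error on sham replicate 2 and 2.30 times on sham replicate 4.

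**Figure D2:**
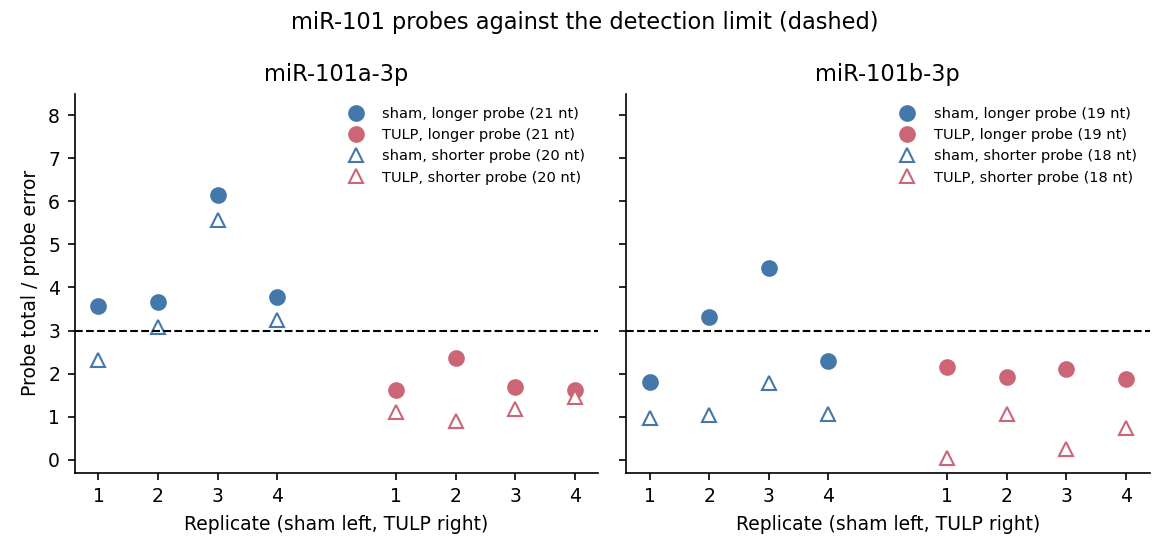
Points give the total signal of each miR-101 probe divided by its error (no unit) on each sham (blue) and TULP (red) array, with circles for the longer and triangles for the shorter probe, and the dashed line marks the detection limit of 3. For miR-101a-3p the longer probe is above the line on 4 of 4 sham arrays and below it on 4 of 4 TULP arrays, and for miR-101b-3p only sham replicates 2 and 3 are above.

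The spots behind these values were few units bright. Spots of the 21-base miR-101a-3p probe varied by 7.95% to 21.4% within a sham array and by 40.9% to 55.4% within a TULP array. Those of the 19-base miR-101b-3p probe varied by 22.7% to 39.9% within a sham array and by 22.9% to 51.2% within a TULP array. For comparison, the negative control spots had an SD of 1.95 to 2.19 units on the sham arrays and 2.17 to 2.45 on the TULP arrays. These ranges touched, with the TULP arrays at the higher end, and the part of this noise in the detection calls was not tested.

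On the normalized log2 scale miR-101a-3p had 1.80, 3.09, 3.95 and 2.88 in the sham group, a mean of 2.93 ± 0.88 (SD, n = 4). All 4 TULP arrays stood at the floor, 0.96, which is the median over arrays of the dimmest detected miRNA and replaces lower values. The resulting difference of -1.97 (SE 0.40) is set by that floor. With a 2-fold lower floor it was -2.97. With each TULP array at its own dimmest detected miRNA, where above the floor, the TULP mean was 1.42 and the difference smaller. Within the slide rows the differences were -1.92 and -1.99. Under the normexp background correction, which adds an offset to every spot and so compresses dim signals, it was -0.10.

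**Figure D3:**
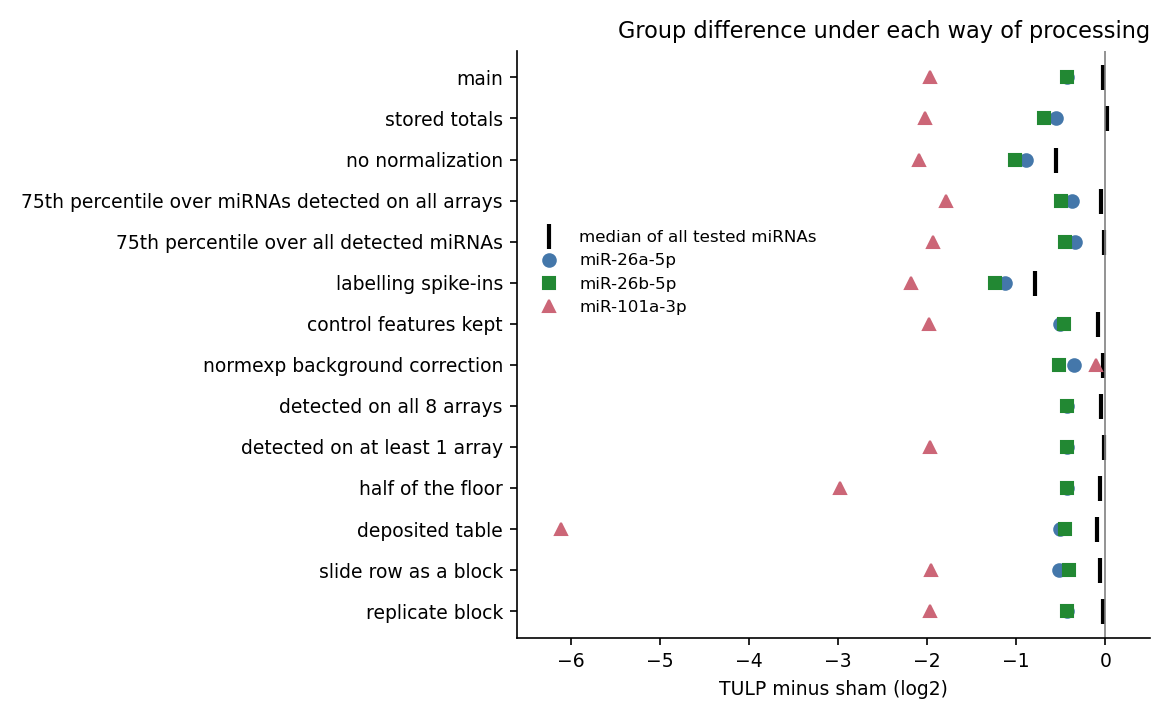
Points give the TULP minus sham difference on the log2 scale of miR-26a-5p, miR-26b-5p and miR-101a-3p under the main processing and each alternative, and the black tick gives the median of all miRNAs tested there. The miR-26 points keep close to each other, left of the median, in every row shown, whereas miR-101a-3p ranges from -0.10 to -6.12 with the floor and the background correction.

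The software's own total for a miRNA and the sum of its detected probes were equal to within 1% for both miR-26 strands on all 8 arrays and for miR-101a-3p on sham replicates 2, 3 and 4. On sham replicate 1 the stored total of miR-101a-3p was 54.3 units, against 4.30 from its detected probe. The stored totals of miR-101b-3p were 14.0 and 22.5 units on sham replicates 2 and 3, against 4.60 and 5.76. The rebuilt sums were therefore used. In the authors' deposited log2 table, miR-101a-3p had 1.36, 3.03, 3.93 and 2.86 in the sham group and -3.32, the value given to undetected miRNAs, on all 4 TULP arrays. The table held 1.02 and -2.25 for miR-101b-3p on TULP replicates 1 and 2, although it was not detected there.

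In the fit over all 151 tested miRNAs, 14 (9.27%) passed the adjusted p with a change of more than 2-fold, and 1 of the 3 strands of the 2 families that entered the fit was among them. At the adjusted p alone, 25 miRNAs (16.6%) were lower in the TULP group and 2 of the 3 strands were among them. The groups did not overlap, with TULP lower, for 22 miRNAs (14.6%) and for 1 of the 3 strands. The strands were chosen on this contrast and miR-101a-3p entered the fit only through its sham arrays, so nothing is read from these counts.

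The opposite strands of the same hairpins had no signal above the limit. The highest of their probe totals on any array was 1.44 units for miR-26a-3p, 0.98 for miR-26b-3p, 0.28 for miR-101b-5p and 0.12 for miR-101a-5p. In units of error the highest value was 1.57, for miR-26b-3p. The probes of miR-101a-5p and miR-101b-5p mostly read below 0 after background subtraction, with lowest values of -1.64 and -1.92 units. The detected strand of each hairpin is the one that is usually named as the active one.

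Some miRNAs had profiles over the 8 arrays much like those of the miR-26 strands. Likeness was measured as the root mean square difference of log2 values after each miRNA was centred on its own mean, over the 151 tested miRNAs and 8 arrays, 4 per group. The miRNAs closest to miR-26b-5p were miR-195-5p (0.15), a member of the miR-15/16 family, let-7g-5p (0.15), of the let-7 family, and miR-29c-3p (0.15), of the miR-29 family known to repress collagens. Their own differences were -0.51 (SE 0.09), -0.54 (SE 0.09) and -0.52 (SE 0.18). Closest to miR-26a-5p were miR-652-3p (0.13), miR-99b-5p (0.13) and miR-196b-5p (0.17), with differences of -0.18 (SE 0.15), -0.42 (SE 0.19) and -0.24 (SE 0.15). miR-26a-5p and miR-26b-5p were 0.20 apart, so each had at least 3 closer miRNAs outside its family. The median distance to all other tested miRNAs was 0.44 for miR-26a-5p and 0.45 for miR-26b-5p.

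**Figure D4:**
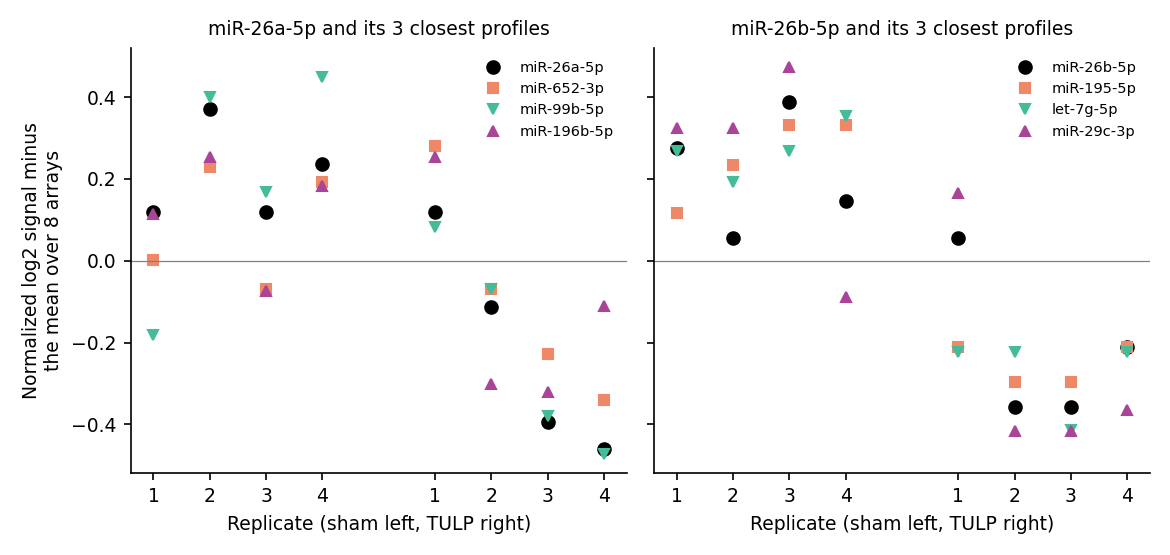
Points give the normalized log2 signal of miR-26a-5p (left) and miR-26b-5p (right), in black, and of the 3 miRNAs with the closest profiles, each minus its mean over the 8 arrays, with sham replicates 1 to 4 at left and TULP replicates 1 to 4 at right of each panel. TULP replicates 2 to 4 lie below 0 for all miRNAs shown, and TULP replicate 1 lies above 0 for miR-26a-5p and miR-26b-5p.

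Closest to miR-101a-3p were miR-181b-5p (0.53), miR-29c-5p (0.58) and miR-30e-3p (0.60), against a median of 1.18. miR-181b-5p and miR-29c-5p were likewise detected on 4 sham arrays and 0 TULP arrays, so that part of the likeness is the shared floor. miR-30e-3p was detected on all 8 arrays and went from 3.60 ± 0.45 to 2.49 ± 0.42, a difference of -1.11 (SE 0.28). The miR-26 strands were farther from miR-101a-3p, at 0.96 and 0.94.

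Other miRNAs for which repression of EZH2 or of other Polycomb subunits has been reported did not move as a block. Of the 22 listed, all 22 were on the array, 16 were tested, 5 were never detected and 1, miR-203a-3p, was detected on a single TULP array. Of the 16, 15 were detected in both groups, and among these 2 fell, 1 rose and 12 did not pass the adjusted p (limma with Benjamini-Hochberg adjustment). The share over all 151 tested miRNAs, those detected in 1 group only included, was 16.6% lower and 13.9% higher. The remaining 1 of the 16, miR-181b-5p, was detected in the sham group alone. With the spike-in scaling, whose signal differed by slide row, 13 of the 16, miR-181b-5p counted, passed as lower and 0 as higher. The median of all tested miRNAs was then -0.78. In the main fit the median difference of the 16 was -0.02, and that of all 151 was -0.02. Except for miR-98-5p, the let-7 family members on the list, 7 with the let-7 name, had differences from -0.23 for let-7c-5p to 0.12 for let-7d-5p.

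miR-214-3p, which is often raised in fibrosis and has been reported to repress EZH2, rose by 0.92 on the log2 scale (SE 0.21, limma adjusted p = 0.0161), with means of 6.84 ± 0.20 in the sham group and 7.77 ± 0.39 in the TULP group. Its groups did not overlap. With the slide row as a block the difference was 0.89 and the limma adjusted p was 0.0578. Without normalization the difference was 0.35 and with the spike-in scaling 0.12, neither past the adjusted p, and it lay 0.90 above the median of all tested miRNAs in both. miR-30d-5p, for which repression of EZH2 has also been reported, fell by 0.37 (SE 0.08, limma adjusted p = 0.0132), with means of 6.41 ± 0.07 and 6.04 ± 0.04, also without overlap. Scaled to the 75th percentile of all detected miRNAs its limma adjusted p was 0.208. Both passed when any single array was left out.

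miR-181a-5p and miR-181b-5p have been reported to repress subunits of Polycomb complex 1. The means of miR-181a-5p were 4.76 ± 0.24 in the sham group and 4.15 ± 0.26 in the TULP group, and the group difference was -0.61 (SE 0.17, limma adjusted p = 0.0336). This call was lost without sham replicate 2, 3 or 4 or TULP replicate 2, 3 or 4, when the limma adjusted p was 0.0679 to 0.0789, and with the slide row as a block, when it was 0.0578. With the stored totals the difference turned to 2.31. The call was also lost there, with the replicate block, with the 75th percentile over all detected miRNAs and under normexp. It held under 10 of 21 alternatives. miR-181b-5p was called present in 4 of 4 sham animals and 0 of 4 TULP animals, so it entered the fit only through the sham arrays, and it is described without a test. Its sham mean was 2.14 ± 0.73, and all 4 TULP arrays stood at the floor. The difference of -1.18 is set by that floor. It was -2.18 with a 2-fold lower floor, -5.12 in the deposited table, -3.38 with the stored totals and -0.06 under normexp.

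Among those that did not pass, miR-200c-3p, an epithelial miRNA, had the lowest difference, -1.46 (SE 0.54, limma adjusted p = 0.0753), and miR-25-3p the highest, 0.15 (SE 0.14, limma adjusted p = 0.514).

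**Figure D5:**
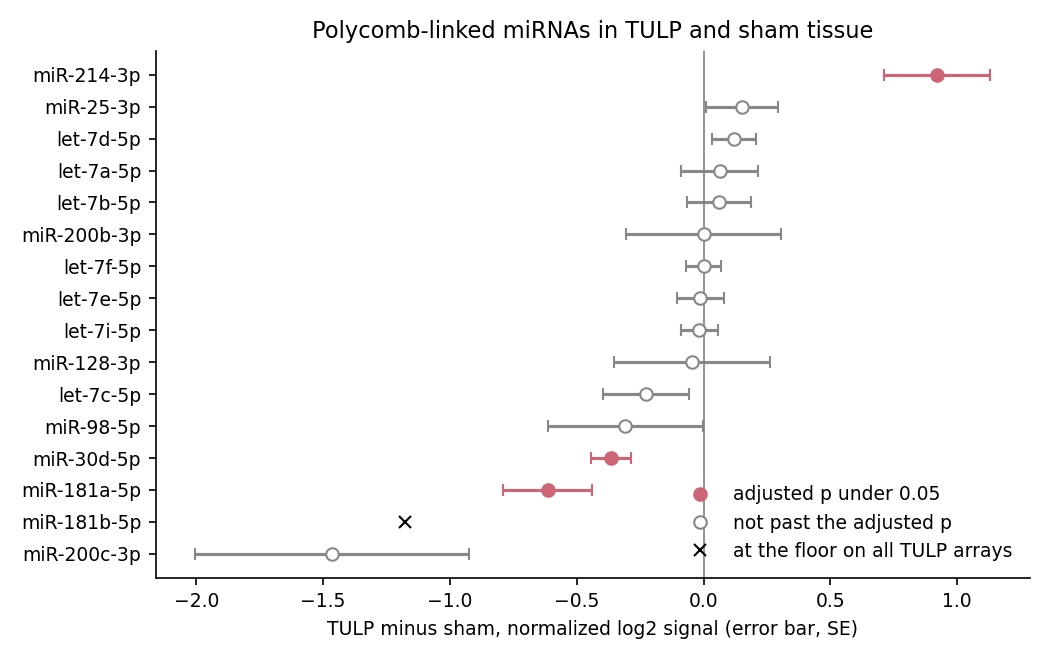
Points give the TULP minus sham difference in normalized log2 signal of the 16 tested Polycomb-linked miRNAs with the SE of the limma fit, filled where the adjusted p was under 0.05, and a cross without SE marks miR-181b-5p, whose value is set by the floor. Among the filled points miR-214-3p lies at 0.92 and miR-30d-5p and miR-181a-5p lie below 0, and the 12 open points did not pass.

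Marker miRNAs of other cell types were summed on each array. The sums of 1 of the 4 lists, the leukocyte list, did not overlap between the groups, and its part in the differences above was not tested. Of 5 leukocyte miRNAs, 4 were tested, of which 3 were higher and 1 lower in the TULP group. Their summed normalized signal was 38.3 to 54.7 on the sham arrays and 65.9 to 132 on the TULP arrays, without overlap, and miR-142-5p was never detected. Such a sum mostly follows its brightest members. miR-223-3p, the brightest of these in the TULP group, had mean log2 values of 4.01 in sham and 6.11 in TULP tissue. The 1 that was lower, miR-150-5p, had 4.47 and 3.88. Of 7 striated muscle miRNAs, 4 were tested, 1 higher and 3 lower, with sums of 4043 to 5659 on the sham arrays and 2639 to 4637 on the TULP arrays, and the cardiac and slow muscle miRNAs miR-208a-3p, miR-208b-3p and miR-499-5p were never detected. These ranges overlapped, as did those of the other lists. The sums of both smooth muscle miRNAs were 648 to 928 and 634 to 1315. Of the epithelial miRNAs 7 were tested, 2 higher and 5 lower, with sums of 488 to 675 and 388 to 938. The brightest of them, miR-200b-3p, had a mean log2 value of 8.36 in both groups. Among the 5 lower ones, miR-375-3p and miR-200c-3p had differences of -2.03 and -1.46, which the sum hardly shows.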

How the data were processed

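Each of 8 animals gave 1 Agilent rat miRNA array of 1 colour. Per the file headers, the authors read spot intensity with Agilent Feature Extraction 10.7.1.1 on a linear, background-subtracted scale. Their deposited log2 table, quantile normalized, served as an alternative. miRNA totals were rebuilt as the sum of probes above 3 times their error (undetected, 0.1), because 352 of 1191 stored totals (29.6%) exceeded that sum by over 1%. The rule gave the deposited detection calls with 0 mismatches. Totals were quantile normalized over 758 rat miRNAs, raised to a floor of 1.94 and taken to log2. The 151 miRNAs detected on at least 4 of 8 arrays entered a limma fit with group as the only term (limma 3.58.1, R 4.3.3), with calls at a Benjamini-Hochberg adjusted p under 0.05 and more than 2-fold. The fit was checked on simulated data. With 4 arrays a group, their number limits the precision.

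The miRNAs, lists and tests were chosen with earlier results of these data known. Named are the members, miR-144-3p, the Polycomb-linked miRNAs that passed the adjusted p with the largest rise and fall among the rest, and the 3 closest profiles of each tested member. Alternatives covered scaling, background correction, floor, filter, stored totals, the deposited table, the methods' t-test, slide row, replicate number and leaving out each array.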

Additional observations from a re-analysis of the deposited data

Results flagged for a closer look

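A normalized log2 value lay far from the other 3 arrays of its group in 4 of 37 groups examined, where chance gives about 1 in 20. miR-29c-3p had 5.94 on TULP replicate 1, with the other TULP arrays at 5.35 to 5.40. The other 3 cases had 3 arrays at exactly the same value, since quantile normalization gives equal ranks equal values. let-7g-5p had 7.40 on TULP replicate 3 (others 7.59), miR-25-3p had 5.46 on TULP replicate 1 (others 5.09) and miR-30d-5p had 6.09 on TULP replicate 4 (others 6.02). The values of miR-26a-5p and miR-26b-5p, and the sham values of miR-101a-3p, gave no such case. The TULP values of miR-101a-3p were all at the floor, so no array could stand apart there.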

How the results depend on the processing

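Over the 21 alternatives the differences were -1.12 to -0.34 for miR-26a-5p and -1.24 to -0.38 for miR-26b-5p. All reuse the arrays on which the strands were chosen, so the shared direction is no further support. The filters, the lower floor and the replicate block cannot change these 2 differences. In the main fit, 42 and 41 of the 151 tested miRNAs had a more negative difference than miR-26a-5p and miR-26b-5p. miR-26a-5p was at -0.89 without normalization and -1.12 with labelling spike-ins. miR-26b-5p was at -1.01, -1.24 and, with stored totals, -0.69. miR-101a-3p was at -2.97 with a 2-fold lower floor, -6.12 in the deposited table and -0.10 under normexp. Without 1 array the ranges were -0.52 to -0.35, -0.49 to -0.38 and -2.41 to -1.53. Differentially expressed miRNAs, 14 in the main fit, numbered 53 with spike-ins, 34 without normalization, 8 among miRNAs detected on all 8 arrays and 1 under normexp, and 10 to 22 without 1 array, 22 without TULP replicate 1. The methods' t-test gave 18 on the main values (12 after Benjamini-Hochberg adjustment) and 17 on the deposited table (13 after it). At the adjusted p alone, 46 became 87 with spike-ins, 28 with the slide row as a block, 28 with stored totals, 19 with the 75th percentile over all detected miRNAs, and 31 to 58 without 1 array. Polycomb-linked miRNAs lower past the adjusted p, 3 in the main fit with miR-181b-5p (detected in sham tissue alone) counted, numbered 13 with spike-ins, 7 without normalization, 5 with the 75th percentile over miRNAs detected on all arrays, 1 under normexp, 1 with the slide row as a block, 0 with the replicate block and 1 to 4 without 1 array. The 1 that rose became 0 with spike-ins, without normalization, with the 75th percentile over all detected miRNAs, the slide row as a block or stored totals. It remained 1 without any 1 array. With stored totals the direction turned for miR-181a-5p (2.31), miR-200c-3p (2.54), miR-99b-5p (4.45) and miR-652-3p (0.18). miR-652-3p was also at 0.047 and 0.0087 with the 75th percentile over all detected miRNAs and over those detected on all arrays, and miR-25-3p at -0.44 with spike-ins, -0.21 without normalization and -0.083 under normexp. The spike-in signal differed between the slide rows, which held the groups unequally. The causes were not tested.

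The rats were divided into the groups at random, and the sample titles name no pairs. Same-numbered arrays deviated from their group means with correlations of 0.13, -0.10, 0.27 and -0.10, which cannot by themselves exclude a pairing. With the replicate block 37 miRNAs passed the adjusted p, and miR-30d-5p and miR-181a-5p no longer passed (limma adjusted p 0.0529 and 0.0911). The member differences were the same, which is fixed in advance because each number occurs once in each group. Signals near the detection limit set what can be said of miR-101.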
